A study of Oryza sativa Indica Group with 5 samples.

Results

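Chlorophyll genes were examined in developing rice seed (Oryza sativa, Indica group): 10 loci that encode enzymes of chlorophyll synthesis, a regulator of greening and enzymes of chlorophyll breakdown. The loci were picked by name and function, and each was matched by its MSU rice locus name to the probes of a custom single-colour Agilent array. All 10 were on the array, which holds 48857 loci in all, and 13 probes represent them. The plants, of 5 rice lines, received no treatment and were kept under glass at a day temperature of 29 °C and a night temperature of 21 °C. Total RNA was prepared from 200 mg of ground seed per line, collected 16 days after flowering. Lines GQ00086, GQ00125 and GQ00170 bear haplotype 8 and are of the high-amylose class. Lines GQ00205 and GQ00212 bear haplotype 4 and are waxy, a class with starch almost free of amylose. The labels do not name the gene behind the haplotype numbers. The study compared these groups. They are called here high-amylose replicates 1, 2 and 3 and waxy replicates 1 and 2, in that order. Each line was measured on 1 array, so the spread within a group holds genetic as well as technical differences between lines.

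Chlorophyll is made in plastids from glutamate through the tetrapyrrole pathway, which branches at protoporphyrin IX to haem or, once magnesium is inserted, to chlorophyll. Light is needed at the step from protochlorophyllide to chlorophyllide. When green tissue ages, chlorophyll b is converted back to chlorophyll a, magnesium is removed, and the ring is opened to colourless products. In the young rice grain, chlorophyll is held mainly in the outer layers, above all the pericarp, and is lost as the grain ripens, while the starchy endosperm stays without colour.

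Brightness differed between the arrays. The 75th percentile of the processed signal ran from 88.8 to 183 on the high-amylose arrays and was 203 and 212 on the waxy arrays. High-amylose replicates 2 and 3 were the dimmest arrays and shared a scan date, and the waxy pair had a scan date of its own, so the group effect and that of scan date cannot be told apart. Signals are given as log2 of the processed intensity minus the 75th percentile of the same array. Across all loci tested, high-amylose replicate 1 correlated with waxy replicates 1 and 2 at 0.951 and 0.955. With high-amylose replicates 2 and 3 its correlation was lower, at 0.928 and 0.901. All 10 endosperm markers and all 6 embryo and aleurone markers on fixed lists were well above background on every array, the scanner software's own mark for a detected spot. Waxy (LOC_Os06g04200), the gene of the granule-bound starch synthase that makes amylose, was at 7.96, 8.46 and 8.32 on the high-amylose arrays, at 8.21 on the array labelled waxy replicate 1 and at 3.70 on waxy replicate 2. The transcript is thus low on only 1 of the arrays labelled waxy.

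No chlorophyll gene passed the test between the groups. The test could be run at 6 of the 10 loci (CHLH, PORB, CAO1, NYC1, SGR and PAO), which were well above background on at least 2 arrays. CHLD, CHLI, PORA and GLK1 were not well above background on any array, although other genes of the pathway were. None of the 6 tested loci passed limma with a Benjamini-Hochberg adjusted p under 0.05, and 0 of the 6 had an unadjusted limma p under 0.05. Over all 28945 loci tested, 8 passed (0.0276%), 3 higher (0.0104%) and 5 lower (0.0173%) in high-amylose seed, and 3.4% had an unadjusted p under 0.05. With every probe tested apart, 0.0196% of probes passed. The loci that passed split as 0 higher and 3 lower in the deposited log2 table and likewise after quantile scaling. This split of loci was 0 and 1 after normexp background correction, and 5 and 5 after median centring. Among the 6 loci, 2 were higher and 4 lower in high-amylose seed, with a median log2 difference of -0.21, whereas 53.9% of all loci were higher, with a median of 0.03. Only CHLH, NYC1 and SGR, 3 of the 6, were well above background on all 5 arrays, as were 77.9% of all loci tested. High-amylose replicate 3 was the highest of the 5 arrays for CHLH, PORB and SGR, 3 of the 6, as for 36.5% of all loci. This count and median depend on single arrays and on the signal used: without waxy replicate 2 the median was 0.16, without waxy replicate 1 only 1 of the 6 was higher, and after normexp on median spot signals, which changes the input and the background correction together, 4 of the 6 were higher with a median of 0.31. As RNA of whole ground seed was measured, fewer cells of a type and less RNA per cell cannot be told apart.

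**Figure D1:**
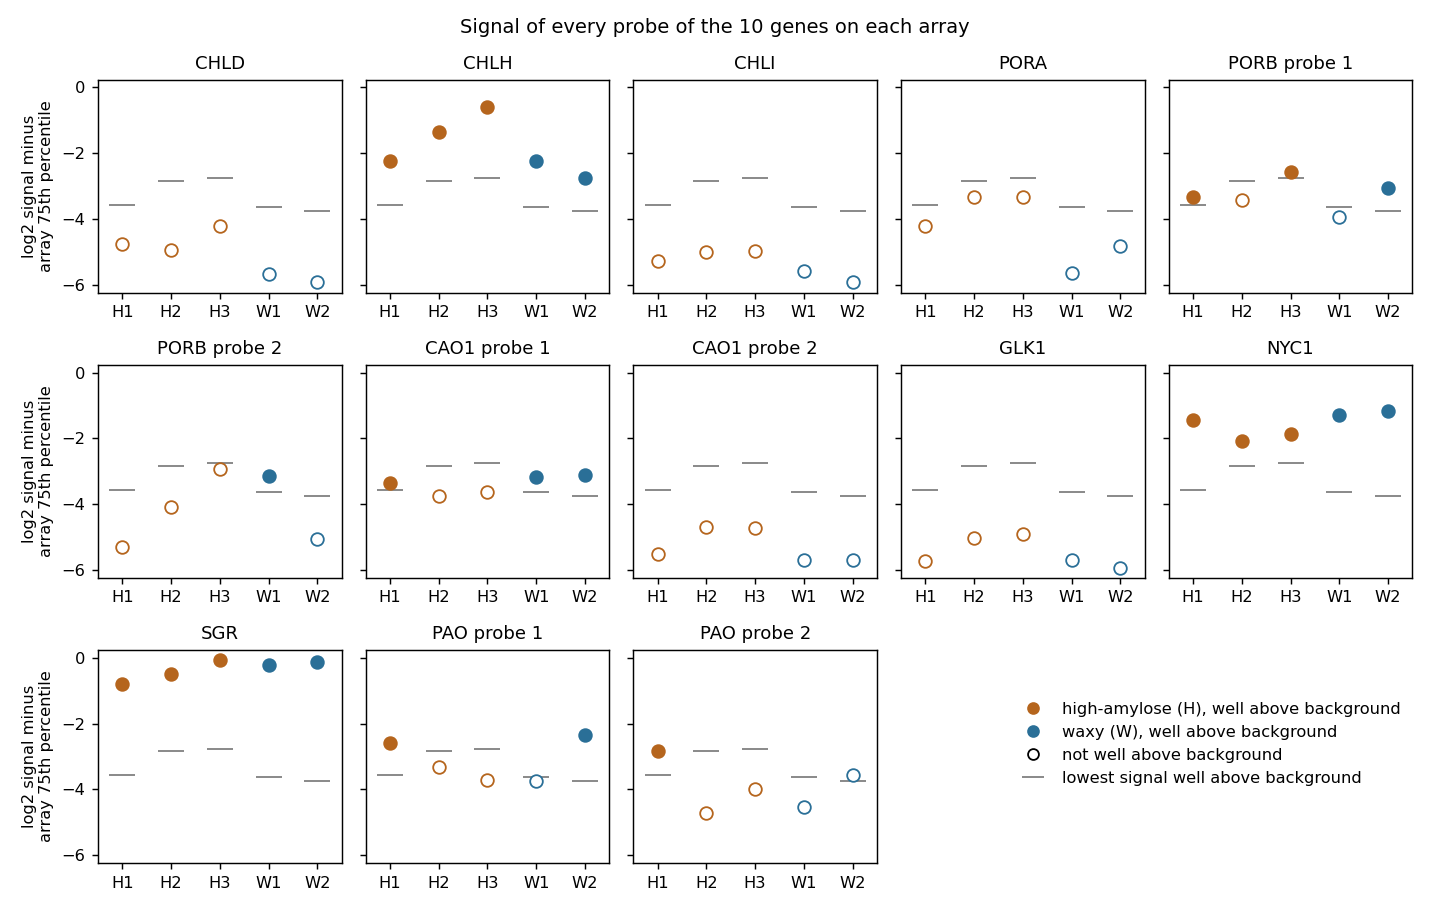
Log2 signal relative to the array's 75th percentile (vertical axis) on the 5 arrays (horizontal axis, H1 to H3 high-amylose, W1 and W2 waxy) for each of the 13 probes of the 10 genes. Filled points are well above background, open points are not, and the grey dash is the lowest signal well above background on that array; CHLH, NYC1 and SGR are filled on all 5 arrays, and CHLD, CHLI, PORA and GLK1 on none.

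Magnesium chelatase, which commits protoporphyrin IX to chlorophyll, is built from the subunits CHLH, CHLD and CHLI. CHLH, the large subunit that binds the porphyrin, was the chlorophyll gene with the largest difference among the 6 tested. CHLH (LOC_Os03g20700) was at -2.24, -1.35 and -0.60 on high-amylose replicates 1, 2 and 3 and at -2.22 and -2.75 on waxy replicates 1 and 2. High-amylose replicates 2 and 3 lay above the other 3 arrays, while high-amylose replicate 1 lay between the waxy arrays, so the groups overlapped. The means were -1.40 (SD 0.82, n = 3) and -2.49 (SD 0.37, n = 2). The fitted CHLH difference was 1.09 on the log2 scale, or 2.12-fold (SE 0.54, 95% interval -0.12 to 2.29), and failed the threshold (limma adjusted p = 1.00). It was the only one of the 6 with a log2 difference above 1, which 3.05% of all loci had. Without high-amylose replicates 2 and 3 it was 0.25, without replicate 3 it was 0.69, and without replicate 1 it was 1.51. Both high-amylose replicates 2 and 3 stood above the other 3 arrays at 25.5% of all loci tested, so CHLH shares that order with many loci.

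CHLD and CHLI, the AAA+ subunits of the chelatase, gave no detected signal. CHLD (LOC_Os03g59640) read -4.74, -4.95 and -4.20 on the high-amylose arrays, with -5.67 and -5.91 on the waxy arrays. CHLI (LOC_Os03g36540) read -5.26, -5.00 and -4.97 on the high-amylose arrays, with -5.57 and -5.92 on the waxy arrays. All 3 high-amylose values lay above both waxy values at each gene. This order is common among dim probes: of the 20105 probes not well above background on any array, 52.9% had all high-amylose values above both waxy values and 1.40% the reverse. The median dim probe stood at -5.54, -4.91 and -4.85 on the high-amylose arrays, with -5.65 and -5.78 on the waxy arrays. The group difference of CHLD was larger than that of 92.1% of dim probes, and the difference of CHLI larger than that of 64.2%.

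The light-dependent protochlorophyllide reductases PORA and PORB catalyse the light-driven step of the pathway. PORA is known from etiolated and very young leaves of rice and PORB from green leaves. PORA (LOC_Os04g58200) read -4.22, -3.33 and -3.34 on the high-amylose arrays, with -5.63 and -4.80 on the waxy arrays. None of these values was well above background. The groups did not overlap, with high-amylose above, as at 52.9% of dim probes. The group difference of PORA was larger than that of 98.5% of dim probes. PORA stood 1.32, 1.59 and 1.51 above the median dim probe on the high-amylose arrays, and 0.02 and 0.97 above it on the waxy arrays. Whether PORA gave a faint signal was not tested. All 5 PORA values lay under the lowest signal well above background on the same array. That was -3.57, -2.84 and -2.76 on the high-amylose arrays, with -3.62 and -3.74 on the waxy arrays. No size of difference is given for PORA, CHLD, CHLI or GLK1, because both groups are below background.

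PORB (LOC_Os10g35370) was detected near the limit, and its probes did not give the same order of arrays. The probe that represents the locus, designed to the first transcript form, was at -3.32, -3.43 and -2.58 on the high-amylose arrays and at -3.93 and -3.04 on the waxy arrays. It was well above background on high-amylose replicates 1 and 3 and on waxy replicate 2, and the groups overlapped. The fitted PORB difference was 0.37 (SE 0.48, 95% interval -0.70 to 1.45, limma adjusted p = 1.00), and without waxy replicate 1 it was -0.07. The probe of the other transcript form of PORB read -5.30, -4.10 and -2.92 on the high-amylose arrays, with -3.14 and -5.05 on the waxy arrays. That probe was well above background on waxy replicate 1 alone, the array on which the representing probe was lowest.

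CAO1 encodes chlorophyllide a oxygenase, which makes chlorophyll b. Its representing probe (LOC_Os10g41780) was at -3.36, -3.74 and -3.64 on the high-amylose arrays and at -3.18 and -3.12 on the waxy arrays. The high-amylose arrays all lay below the waxy arrays, and high-amylose replicates 2 and 3 were not well above background. On those 2 arrays the lowest signal well above background, -2.84 and -2.76, lay above both waxy values of CAO1. The fitted CAO1 difference was -0.43 (SE 0.40, 95% interval -1.33 to 0.48, limma adjusted p = 1.00), and after normexp it was 0.26. The other CAO1 probe went undetected on every array. The adjacent copy CAO2 (LOC_Os10g41760) was likewise undetected on all 5 arrays. Cross-hybridisation between these similar genes was not tested.

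GLK1 (LOC_Os06g24070) encodes a transcription factor that switches on chlorophyll synthesis and antenna genes during chloroplast development. It read -5.73, -5.03 and -4.91 on the high-amylose arrays, with -5.70 and -5.93 on the waxy arrays. These values were within 0.19 of the median dim probe on every array. The group difference of GLK1 was larger than that of 45.6% of dim probes. Its related factor GLK2 (LOC_Os01g13740) was detected throughout, at 3.50, 2.20 and 1.92 on the high-amylose arrays and at 2.67 and 1.92 on the waxy arrays. High-amylose replicate 1 was the highest of the 5 for GLK2, and the other 4 overlapped. The fitted GLK2 difference was 0.24 (SE 0.55, limma adjusted p = 1.00).

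Of the 3 breakdown genes, NYC1 and SGR were detected on every array and had a difference below 0, while PAO had no stable sign. NYC1, chlorophyll b reductase, starts the conversion of chlorophyll b to chlorophyll a. NYC1 (LOC_Os01g12710) was at -1.43, -2.07 and -1.88 on the high-amylose arrays and at -1.29 and -1.16 on the waxy arrays, well above background on all 5. Every high-amylose array lay below both waxy arrays, with high-amylose replicate 1 nearest to them. The means were -1.79 (SD 0.33, n = 3) and -1.23 (SD 0.09, n = 2). The fitted NYC1 difference was -0.56, or 1.48-fold lower (SE 0.42, 95% interval -1.51 to 0.38), and failed the threshold (limma adjusted p = 1.00). It was -0.20 without high-amylose replicates 2 and 3 and -0.08 after normexp. NYC1 and CAO1 were the 2 of 6 tested loci whose groups did not overlap, both with high-amylose below. That order was found at 5.03% of all loci tested, and 0 of 6 had high-amylose above, found at 8.52%. CAO1 was not well above background on high-amylose replicates 2 and 3, so its order is uncertain.

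SGR, the stay-green gene, encodes the enzyme that takes magnesium out of chlorophyll a, and it varied least of the 3 members detected on every array, with a range of 0.73 across the 5. SGR (LOC_Os09g36200) was at -0.79, -0.49 and -0.06 on the high-amylose arrays and at -0.24 and -0.13 on the waxy arrays. High-amylose replicate 3 lay above both waxy arrays and high-amylose replicates 1 and 2 below them. The fitted SGR difference was -0.27 (SE 0.42, 95% interval -1.22 to 0.69, limma adjusted p = 1.00). The interval spans 0, and a level lower by 1.22 in high-amylose seed still lies at its edge.

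PAO, pheophorbide a oxygenase, opens the ring of the pigment. Its representing probe (LOC_Os03g05310) was at -2.59, -3.32 and -3.71 on the high-amylose arrays and at -3.74 and -2.36 on the waxy arrays. It was well above background on high-amylose replicate 1 and waxy replicate 2, which belong to different groups. The fitted PAO difference was -0.16 (SE 0.55, limma adjusted p = 1.00), and it changed sign when arrays were left out, at 0.54 without waxy replicate 2 and -0.85 without waxy replicate 1. The other PAO probe read -2.82, -4.73 and -3.98 on the high-amylose arrays, with -4.54 and -3.57 on the waxy arrays. High-amylose replicate 1 and waxy replicate 2 were the highest arrays for both PAO probes. The other probe was well above background on high-amylose replicate 1 alone, and the order of its group means was the reverse, -3.84 in high-amylose and -4.05 in waxy seed.

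**Figure D2:**
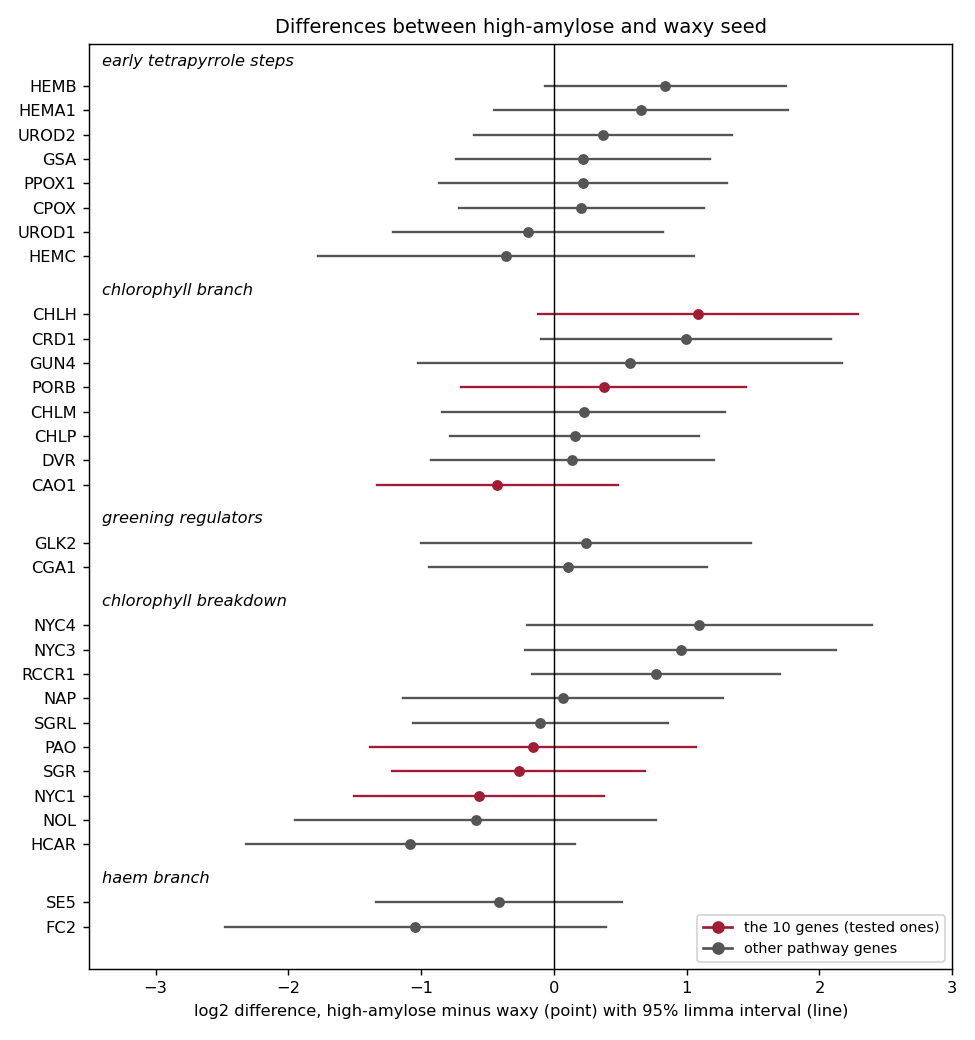
Fitted log2 difference, high-amylose minus waxy (points), with its 95% limma interval (lines), for the 6 tested chlorophyll genes (red) and 24 other tested genes of the pathway (grey), grouped by role. All 30 intervals include 0; CHLH stands at 1.09 and NYC1 at -0.56.

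The other genes of the pathway were read from a fixed list of 26 loci, of which 24 could be tested. None of the 24 passed, over all loci, and 0 had an unadjusted limma p under 0.05. Of the 24, 17 were higher and 7 lower in high-amylose seed, with a median log2 difference of 0.21, and without waxy replicate 2 that was 11 higher with a median of -0.01. Groups did not overlap at 2 loci with high-amylose above, HEMB and RCCR1, and at 1 with high-amylose below, SE5, against 8.52% and 5.03% of all loci.

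All 8 early tetrapyrrole genes were well above background on at least 4 arrays. HEMB, which joins 2 molecules of aminolevulinate, was at -1.42, -1.12 and -1.45 on the high-amylose arrays and at -2.18 and -2.17 on the waxy arrays, with no overlap. Its fitted difference was 0.84 (SE 0.40, limma adjusted p = 1.00). HEMA1, the glutamyl-tRNA reductase that controls entry into the pathway, was at 0.66 (SE 0.49), UROD2, a uroporphyrinogen decarboxylase, at 0.37 (SE 0.43) and HEMC, porphobilinogen deaminase, at -0.36 (SE 0.63). Of the 8 early genes, 6 were higher and 2 lower. UROD1, counted as lower, was at -0.20 on its representing probe but at 0.55 on its other tested probe. On that other probe all high-amylose values lay above both waxy values.

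In the chlorophyll branch, all 5 tested list genes had a difference above 0, as had 53.9% of all loci. Of the tested members in this branch, CHLH and PORB were above 0 and CAO1 was below, at -0.43. CRD1, of the cyclase that closes the fifth ring, was at -2.70, -1.87 and -1.65 on the high-amylose arrays and at -2.69 and -3.45 on the waxy arrays. High-amylose replicate 1 lay beside waxy replicate 1, and the fitted CRD1 difference was 1.00 (SE 0.48, limma adjusted p = 1.00). Another CRD1 probe was well above background on all high-amylose arrays and on neither waxy array, with a lower bound of 2.77-fold (limma over probes, adjusted p = 0.898). It could be tested only through its high-amylose signal, so its direction was fixed in part by the filter. The representing CRD1 probe, detected on all 5 arrays, gave 1.99-fold with overlapping groups, and a further CRD1 probe was undetected throughout. GUN4, an activator of magnesium chelatase, was at 0.57 (SE 0.71), CHLM, the methyltransferase that acts on the product of the chelatase, at 0.22 (SE 0.47) and CHLP, geranylgeranyl reductase, at 0.16 (SE 0.42). CHLG, chlorophyll synthase, was undetected on every array with either of its 2 probes.

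The other breakdown genes did not share one direction. NYC4, the rice counterpart of the thylakoid protein THF1, was 2.14-fold higher (SE 0.58 on the log2 scale) and NYC3, the rice counterpart of pheophytin hydrolase, was at a log2 difference of 0.95 (SE 0.52). RCCR1, red chlorophyll catabolite reductase, was at 0.77 (SE 0.42), and HCAR, which completes the conversion of chlorophyll b to chlorophyll a that NYC1 begins, was at -1.08 (SE 0.55), each with a limma adjusted p of 1.00. HCAR was not well above background on high-amylose replicates 2 and 3, nor NYC3 on high-amylose replicate 1 and waxy replicate 2. The size of the difference is thus uncertain for HCAR and NYC3. For NYC4 the high-amylose arrays were at -1.25, 0.45 and 0.42 and the waxy arrays at -0.99 and -1.45. High-amylose replicates 2 and 3 thus again stood above the other arrays, an order found at 25.5% of all loci. In the haem branch, FC2, a ferrochelatase, was at -1.04 (SE 0.64) and SE5, the haem oxygenase of phytochrome chromophore synthesis, at -0.41 (SE 0.41). FC2 was not well above background on high-amylose replicate 3. SE5 was well above background on all arrays, at 4.43, 3.97 and 3.97 in high-amylose and 4.49 and 4.58 in waxy seed.

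Profiles were also compared by the root mean square distance between log2 signals centred on each gene's mean over the 5 arrays, against 59 other listed genes. CHLH lay nearest to CRD1 (0.22) and NYC3 (0.27), where the median distance was 0.83. PORB lay nearest to DVR (0.17), the divinyl reductase, and RCCR1 (0.33), SGR to the related SGRL (0.11) and CGA1 (0.25), and PAO to the endosperm genes BEIIb (0.32) and AGPL2 (0.44). CAO1 lay nearest to SE5 (0.06) and NYC1 (0.11), and NYC1 to SE5 (0.10) and CAO1 (0.11). These distances rest on 5 arrays and describe them only.

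Photosynthesis genes, used here as markers of green tissue, spread more widely between the arrays than the chlorophyll genes, a contrast that was not tested. Of 16 markers, 14 were tested, and 0 passed limma. Of these 14, 7 were well above background on all 5 arrays, and all 7 were higher in high-amylose seed, with a median log2 difference of 1.43. Another 4 (LHCA, LHCB_b, PSAF and RBCS_b) were detected only on high-amylose replicates 2 and 3. They could be tested only through that signal, so their direction was fixed in part by the filter. Sums, medians and counts over all 14 include them. The 3 markers with an unadjusted limma p under 0.05 (LHCA, LHCB_b and PSAF) are among those 4. The summed signal of all 14 tested markers, in multiples of the array's 75th percentile, was 2.26, 9.38 and 26.5 on the high-amylose arrays. On the waxy arrays it was 2.71 and 2.73. The sum of the 6 tested chlorophyll genes was 1.52, 1.61 and 2.21 against 1.72 and 1.94. Split by role, the 3 tested synthesis genes gave 0.41, 0.56 and 0.91 against 0.39 and 0.39. The 3 breakdown genes gave 1.11, 1.05 and 1.31 against 1.33 and 1.55. High-amylose replicates 2 and 3 lay above the other arrays at 1 of the 6 chlorophyll genes, CHLH, against 25.5% of all loci. They lay below the other arrays at 2 of the 6, NYC1 and CAO1, against 16.5%, with CAO1 undetected on both. Of the 7 markers detected on all 5 arrays, all but RBCS_c had replicates 2 and 3 above the rest. RBCS_c, a Rubisco small subunit gene, was the exception on its representing probe. Its other probe read -2.93, -1.06 and 1.66 on the high-amylose arrays, with -3.47 and -3.05 on the waxy arrays, so there replicates 2 and 3 were above the rest too. The antenna gene LHCB_c, detected on all 5 arrays, had a log2 difference of 2.03 (SE 0.92). No size is given for PSAF, a photosystem I subunit, LHCA, an antenna protein, RBCS_b (LOC_Os12g19381), a Rubisco small subunit, or LHCB_b. All 4, each with a limma adjusted p of 1.00, were undetected on high-amylose replicate 1 as well as on both waxy arrays. At RBCS_b and LHCB_b the groups overlapped. The smallest log2 difference among the 14 tested markers was that of RBCS_c, 0.07 (SE 0.47). CAB1R and CAB2R were well above background on 1 array each. With high-amylose replicates 2 and 3 left out, 5 of the 14 tested markers were higher and the median of the 14 was -0.23. The 4 markers detected on neither waxy array were undetected on all the arrays that remained. Of the 24 other pathway genes, 7 had high-amylose replicates 2 and 3 above the other arrays, CRD1 and NYC4 among them, and 3 had both below. Over all loci these shares were 25.5% and 16.5%. The part of green tissue content in the CHLH, CRD1 and NYC4 values, which are high on the same 2 arrays, was not tested.

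**Figure D3:**
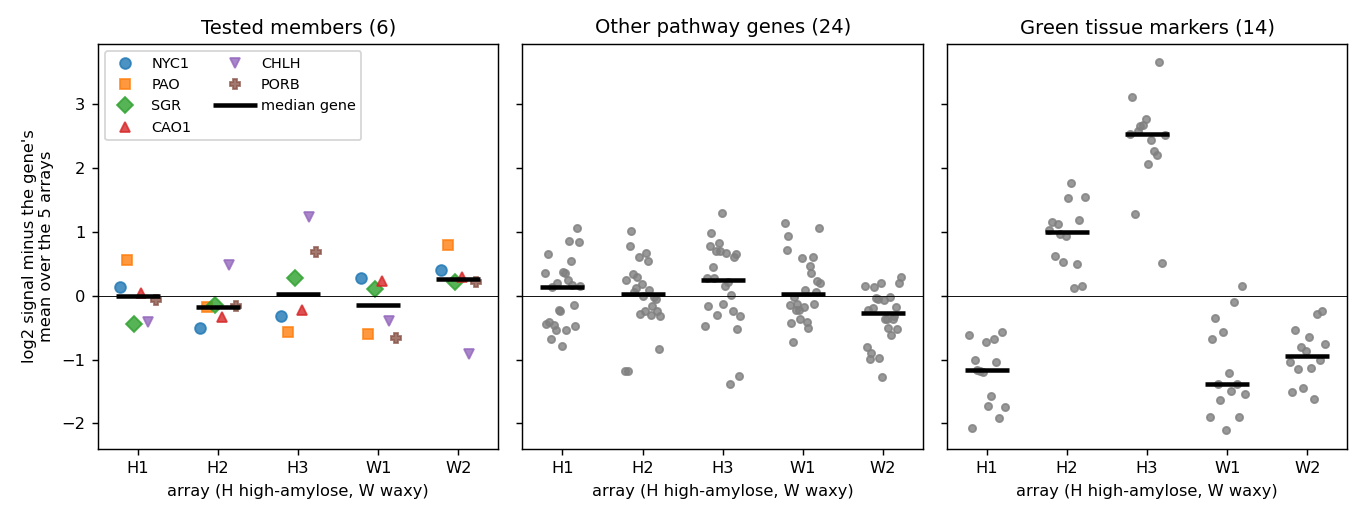
Log2 signal of each gene minus its mean over the 5 arrays (vertical axis) by array (horizontal axis, H1 to H3 high-amylose, W1 and W2 waxy) for the 6 tested chlorophyll genes, the 24 other tested pathway genes and the 14 tested green tissue markers; black bars are medians, and 4 of the 14 markers are below background on both waxy arrays. The marker median stands at 1.00 and 2.52 on H2 and H3 and at -1.17, -1.39 and -0.94 on H1, W1 and W2, while the chlorophyll gene median stays between -0.17 and 0.25.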

How the data were processed

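Per the file headers, Agilent Feature Extraction 11.5.1.1 (protocol GE1_1105_Oct12) made the deposited scanner files, which hold an intensity for each spot, corrected for background and spatial trend but not scaled between arrays, and flags of 0 or 1. The authors also deposited a table of log2 values; limma, with no version, is named in the submitters' processing notes. Differences between its columns followed those of quantile-normalized intensity (r of 0.9996 to 0.9997 across probes), so its scale and direction are settled, but the baseline subtracted per probe stays unknown. Its column medians were -0.0172, 0.0395 and 0.0270 for the high-amylose arrays and -0.0227 and 0.00414 for the waxy arrays, and it served as an alternative.

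Control spots were left out (61657 spots, 59676 probes stayed). No spot was saturated. Outlier spots were dropped before spots of a probe were averaged, unless all were outliers. A probe was tested if well above background on at least 2 arrays (35634 probes), and a locus was represented by its brightest tested probe (28945 loci). The group difference was fitted in limma 3.58.1 under R 4.3.3 (all 5 arrays, two-sided, no covariate), with p-values adjusted by Benjamini-Hochberg over all loci at 0.05. The number of arrays limits the precision: the median SE was 0.463. An exact permutation test of 3 against 2 arrays cannot go below 0.1 and was not used. The normexp alternative (offset 50) used median spot signals, because the files hold no mean signal. Where a probe was below background on all arrays of a group and detected on all of the other, a lower bound is given. It is the bright group's mean against the higher of the dim group's own signal and the lowest signal well above background, averaged over arrays. The named genes are all 10 members, up to 4 pathway genes per role and 3 green markers with the largest differences, and the 2 nearest profiles of each member. Other genes named for a count of 5 or fewer, for a second probe or detection on all arrays, for their copy or relation to a member, or as the label check were chosen after their values were seen. The members and lists were chosen with earlier results of these data known. The lists use published rice gene names with MSU loci, which the files do not pair. Other tools were the data.table package (1.17.8), jsonlite 2.0.0, Python 3.11.15, pandas 2.3.3 and matplotlib 3.10.9. No probe sequence or coordinate was used here.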

Additional observations from a re-analysis of the deposited data

How the results depend on the processing

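No chlorophyll gene or other pathway gene passed under any of the 16 alternatives, and 1 green marker passed only without waxy replicate 2. Leaving out 1 array gave 3 to 179 called loci, a chlorophyll gene median of -0.39 to 0.16 with 1 to 3 higher, a pathway median of -0.011 to 0.37 with 11 to 17 higher, and a marker median of 0.94 to 3.08 with 13 to 14 higher and 0 to 1 called. Called loci were 72 without waxy replicate 1 and 179 without waxy replicate 2, fits with 1 waxy array that is taken to vary like the others. They were 1 after normexp, 3 after quantile scaling, 3 in the deposited log2 values, 21 with the filter on all 5 arrays, and 0 with a term for high-amylose replicates 2 and 3 or without both (1162 and 1663 at an unadjusted limma p under 0.05). With that term or without both, the chlorophyll gene median was -0.019 and the marker median -0.23 with 5 higher. With no filter, 6 of 10 chlorophyll genes were higher with a median of 0.48, 4 of the 10 from undetected probes. Among loci detected on all 5 arrays, 1 of 3 chlorophyll genes and 7 of 7 markers were higher, since other loci are then tested. The other marker medians and counts given here include the 4 markers detected on neither waxy array. After normexp, 4 of 6 chlorophyll genes were higher with a median of 0.31. CHLH, NYC1 and SGR kept their sign throughout (0.25 to 1.51, -0.75 to -0.08 and -0.61 to -0.09). CAO1 turned to 0.26 and PAO to 0.36 after normexp. PAO also turned to 0.46 with the term or without both arrays, to 0.09 without high-amylose replicate 3 and to 0.54 without waxy replicate 2, and PORB to -0.071 without waxy replicate 1. Leaving out 1 array gave -0.85 to 0.54 for PAO and -0.071 to 0.82 for PORB. The cause of these changes was not tested. With scan date as a random block, CHLH was at 1.04. No paired analysis was possible because the 5 arrays come from 5 different lines, and the labels pair none of them. Signal over background limits 7 of the 10 genes, which were not detected on all 5 arrays.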

Other observations

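Some second probes of these genes were detected on a lone array. Of the 96 probes of all listed loci, 8 were well above background on exactly 1 array. Waxy replicate 1 held 4 of these: the probe of the second PORB form (LOC_Os10g35370.2), that of a second UROD2 form (LOC_Os01g43390.2), one of the SGR-like gene SGRL (LOC_Os04g59610.2) and that of CAB1R, an antenna protein gene. For SGRL the probe read -5.90, -5.17 and -5.10 on the high-amylose arrays, -2.32 on waxy replicate 1 and -6.07 on waxy replicate 2, while the representing SGRL probe was at 0.77, 1.28 and 1.50, and at 1.20 and 1.37. Over the whole array, 3937 probes were detected on exactly 1 array, 30.6% of them on waxy replicate 1, 25.2% on high-amylose replicate 1, 23.6% on waxy replicate 2, and 9.91% and 10.6% on high-amylose replicates 2 and 3, the dimmer arrays. Waxy replicate 1 is also the waxy array with a high Waxy signal.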
